A study of Homo sapiens with 6 samples.

Results

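The HOX cluster genes are the genes of the HOXA, HOXB, HOXC and HOXD clusters, which encode the homeodomain transcription factors of the body axis. The 38 genes listed for this purpose were taken by name from the annotation of the hg19 genome, out of 20163 protein-coding genes, and each was given a window that joins the 5 kb on either side of all its annotated transcription start sites (TSSs). All regions inside the 4 clusters were taken as well, whether or not they lay in such a window. The choice used gene names and positions only and no measured value, but it was made with earlier results of these data known. It held 23 of 17638 and 11 of 8046 KDM3B regions, and 20 of 11645 and 179 of 88855 H3K9me2 regions, in control and depleted cells respectively.

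The regions come from ChIP-seq of KDM3B, a demethylase of histone H3 lysine 9, and of H3K9me2, the dimethyl mark that it removes, in HCT116 cells, an established human colorectal cancer line. By the study's text, control cells (Con, HCT116/Scrsh) carried a scramble shRNA. Depleted cells (KD, HCT116/ABsh-1) carried an shRNA against KDM3A and KDM3B, so that the protein precipitated in the KDM3B libraries is itself a target of the depletion. GEO's treatment label speaks of siRNA and the study's methods of shRNA, and the titles give only Con and KD, so which of the reagents was used for these libraries was not settled here. There was 1 library per antibody and cell population, so no replicate error exists, no test was made between Con and KD, and a difference between them cannot be told apart from a difference between libraries. The 2 input libraries were not analysed here.

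HOX genes lie side by side in each cluster in the order in which they are used along the body axis, from anterior (paralogs 1 to 3, such as HOXB1 of the hindbrain) through central (4 to 8) to posterior (9 to 13, such as HOXA13 and HOXD13 of the hindgut, digits and urogenital tract). In cells that do not use them, the clusters are classically held silent by Polycomb proteins and H3K27 methylation, and within the clusters sites of the insulator protein CTCF separate active from silent genes. H3K9me2 is a mark of silent euchromatin that is laid down mainly by G9a and GLP.

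The sequences under the regions are shown first, because part of the KDM3B regions turned out to hold letters that the rule did not use. All are the plus strand of hg19, and the deposited data give no allele. The first pair are 60 bases from the highest-scoring KDM3B regions of the HOXA and HOXB clusters, which were present in both Con and KD. Their capitals mark the match to the 14-letter consensus of CTCF sites, with no letter that differs in HOXA and 1 in HOXB.

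KDM3B between HOXA7 and HOXA9, chr7:27200732-27200791: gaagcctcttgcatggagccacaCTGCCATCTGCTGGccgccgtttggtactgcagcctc
KDM3B upstream of HOXB8, chr17:46696083-46696142: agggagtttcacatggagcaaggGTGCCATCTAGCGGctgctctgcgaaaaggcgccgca

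The next are whole KDM3B regions of Con that were absent in KD. They are those nearest to a HOX start site among such regions of at most 300 bp outside untranslated exon parts, at 113 bp from HOXA9, −284 bp from HOXC5, 429 bp from HOXB7 and 1394 bp from HOXB6. Capitals mark a CTCF match with 2 letters that differ, which the HOXC5 and HOXB6 regions held and the HOXA9 and HOXB7 regions did not.

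KDM3B at HOXA9, chr7:27208901-27209000: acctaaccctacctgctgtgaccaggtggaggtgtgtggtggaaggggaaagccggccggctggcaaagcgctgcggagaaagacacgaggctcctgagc
KDM3B at HOXC5, chr12:54426501-54426600: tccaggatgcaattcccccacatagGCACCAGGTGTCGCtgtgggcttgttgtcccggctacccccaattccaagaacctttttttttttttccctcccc
KDM3B in exon 1 of HOXB7, chr17:46687901-46688000: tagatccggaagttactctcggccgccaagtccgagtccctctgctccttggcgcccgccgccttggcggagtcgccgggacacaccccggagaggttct
KDM3B in an intron of HOXB6, chr17:46680001-46680200: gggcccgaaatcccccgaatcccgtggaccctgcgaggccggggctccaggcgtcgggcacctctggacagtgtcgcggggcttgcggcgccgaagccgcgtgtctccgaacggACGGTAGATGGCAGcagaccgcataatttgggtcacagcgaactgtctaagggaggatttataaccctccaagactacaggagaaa

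A further KDM3B region of Con, in a non-coding exon within HOXA3, is shown because it alone of the 22 in the clusters held the TGATTTAT letters of PBX with HOX sites, here in capitals.

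KDM3B within HOXA3, chr7:27163801-27164000: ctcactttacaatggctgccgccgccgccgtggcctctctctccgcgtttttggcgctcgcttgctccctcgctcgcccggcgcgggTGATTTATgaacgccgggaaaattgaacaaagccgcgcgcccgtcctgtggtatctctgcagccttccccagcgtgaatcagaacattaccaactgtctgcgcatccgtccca

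The KDM3B region upstream of HOXC8 had identical limits in Con and KD and held no match to the searched letters.

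KDM3B upstream of HOXC8, chr12:54399801-54400000: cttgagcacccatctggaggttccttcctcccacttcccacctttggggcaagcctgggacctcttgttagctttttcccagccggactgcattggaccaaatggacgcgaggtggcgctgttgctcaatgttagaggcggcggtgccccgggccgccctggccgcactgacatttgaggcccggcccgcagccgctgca

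For H3K9me2, 2 stretches of first coding exons are shown. The HOXD13 stretch was a region with identical limits in Con and KD, and the HOXC8 stretch was present in KD only and was the sole H3K9me2 region in the windows of that gene. Neither held a searched motif, so neither has capitals.

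H3K9me2 in exon 1 of HOXD13, chr2:176958001-176958300: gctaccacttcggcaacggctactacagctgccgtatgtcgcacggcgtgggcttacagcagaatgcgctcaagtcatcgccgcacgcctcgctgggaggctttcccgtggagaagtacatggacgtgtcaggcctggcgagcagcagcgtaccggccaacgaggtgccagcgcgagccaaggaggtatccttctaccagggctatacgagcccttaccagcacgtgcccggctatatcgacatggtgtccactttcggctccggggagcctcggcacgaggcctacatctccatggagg
H3K9me2 in exon 1 of HOXC8, chr12:54403201-54403300: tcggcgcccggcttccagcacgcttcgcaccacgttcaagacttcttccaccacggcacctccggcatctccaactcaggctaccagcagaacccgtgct

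Regions of both KDM3B and H3K9me2 were dense in the clusters. Con held 22 KDM3B regions in 561004 bp of clusters, or 3.92 per 100 kb against 0.617 per 100 kb of the assembled genome, and KD held 10, or 1.78 against 0.281. For H3K9me2 the clusters held 20 regions in Con, 3.57 per 100 kb against 0.407, and 176 in KD, 31.4 per 100 kb against 3.11. The clusters were thus 6.36 and 6.33 times as dense as the genome for KDM3B, and 8.75 and 10.1 times for H3K9me2, in Con and KD. In bases, KDM3B regions covered 5800 bp in Con and 3300 bp in KD, and H3K9me2 regions 3600 bp and 57500 bp, the last being 10.2% of the clusters against 0.966% of the genome. The number of regions in KD over that in Con was 0.455 for KDM3B in the clusters and 0.456 for the whole lists, and 8.80 for H3K9me2 against 7.63 for the whole lists. The change of the HOX clusters in number of regions was therefore close to that of the lists as a whole, and the excess over the genome was there in Con already. In bases, KD over Con was 0.569 for KDM3B in the clusters against 0.407 for the whole list. For H3K9me2 it was 16.0 against 16.4. KDM3B cover of the clusters was 9.20 times that of the genome in Con and 12.9 times in KD. The part of sequencing depth, which is unknown, in these numbers was not tested.

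The clusters differed among themselves. HOXA held 10 KDM3B regions in Con and 3 in KD, HOXB 8 and 4, HOXC 2 and 1, and HOXD 2 in both. H3K9me2 went from 1 region in Con to 39 in KD in HOXA, from 11 to 58 in HOXB, from 3 to 42 in HOXC and from 5 to 37 in HOXD. HOXA thus had the most KDM3B and the least H3K9me2 of the clusters in Con, whereas in KD the H3K9me2 cover lay within a narrow range in all 4 clusters, from 9.38% in HOXA to 11.6% in HOXD. The 500 kb on either side of each cluster held from 1 to 7.6 H3K9me2 regions per 100 kb in KD. KDM3B in Con was not denser in HOXC than beside it, at 1.67 against 2.9 per 100 kb, while HOXA had 7.69 against 0.7.

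Of the 38 genes, 16 had a KDM3B region in their windows in Con (42.1%, Wilson 95% interval 27.9 to 57.8%) and 10 in KD (26.3%, 15.0 to 42.0%), beside 35% and 19.2% of all protein-coding genes. H3K9me2 was at 9 genes in Con (23.7%, 13 to 39.2%) and at 37 in KD (97.4%, 86.5 to 99.5%), beside 10.2% and 49.2%. KDM3B was present in Con and absent in KD at 6 genes (15.8%) against 20% of all genes, and no HOX gene had it in KD only. H3K9me2 was present in KD and absent in Con at 28 genes (73.7%) against 40.2%. With the lists as deposited, the interval of each KDM3B share per list includes the background, whereas those of the H3K9me2 shares of both Con and KD lie above it. The intervals cover counting error only, and the genes are not independent, because neighbouring windows overlap: the 31 gene and region pairs of KDM3B in Con came from 20 regions, and the 209 of H3K9me2 in KD from 146.

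In the HOXA cluster, KDM3B in Con centred on HOXA9, a regulator of blood progenitors that is active in leukaemia. The windows of HOXA9 held 6 KDM3B regions of 1700 bp in Con and 2 of 800 bp in KD, with no H3K9me2 in Con and 1325 bp in KD. HOXA10, which patterns the uterus, had 900 bp of KDM3B in Con and 200 bp in KD, and HOXA7 had 600 bp in both. HOXA9, HOXA7 and HOXA10 share some of these regions, so that they do not count as separate cases. The region between HOXA7 and HOXA9 (chr7:27200601-27201000 in Con, score 153) was wider in KD (chr7:27200401-27201000, score 170), while the regions of Con at −44 and 113 bp from HOXA9 start sites were absent in KD.

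HOXA13, which shapes the hindgut and digits, had 1 KDM3B region of 200 bp in Con, none in KD, and H3K9me2 of 0 and 1010 bp. HOXA3, needed for the thymus and parathyroid glands, had 500 bp of KDM3B in Con and 200 bp in KD, and its H3K9me2 was 100 bp in Con, in coding exon 5, and 2899 bp in KD. The remaining genes of the cluster had no KDM3B region in either list. Among these HOXA11, which patterns the forearm and uterus, had the most H3K9me2 in KD, 2700 bp from 0 bp in Con, followed by HOXA6 with 1808 bp, HOXA5 with 1600 bp and HOXA2 with 1000 bp. HOXA4 was the only HOX gene with no region in any of the 4 lists, and its closest H3K9me2 region of KD was centred 6925 bp from its canonical TSS.

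In the HOXB cluster, the strongest KDM3B region of all HOX clusters lay at −3396 bp from the TSS of HOXB8, a gene of myeloid progenitors (chr17:46695801-46696300, score 271 in Con, percentile 99.8 of the list). It was present in KD at chr17:46695901-46696300 with a score of 188. HOXB8 as a whole had 600 bp of KDM3B in Con and 400 bp in KD, with H3K9me2 of 0 and 1054 bp. HOXB6 and HOXB7, central genes used in the trunk, had 600 and 500 bp of KDM3B in Con and none in KD, and no H3K9me2 in Con but 1200 and 1900 bp in KD. The HOXB7 region of 100 bp lay in its coding exon 1, at 429 bp from the TSS.

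HOXB13, a gene of the prostate and the distal colon, had a single KDM3B region of 200 bp in Con, none in KD, and H3K9me2 of 0 and 2200 bp. HOXB3, the gene with the widest windows (49242 bp over 12 start sites), had 1000 and 800 bp of KDM3B, and its H3K9me2 was 500 bp in Con and 6300 bp in KD, the most of any HOX gene. Per kb of window HOXB3 had 128 bp in KD, which is close to the mean of 111 bp over the 38 genes. The mean over all protein-coding genes was 34.2 bp per kb.

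The anterior end of HOXB was the place with most H3K9me2 in Con. HOXB1, the hindbrain gene, had 3 regions of 800 bp in Con and 4 of 1300 bp in KD, and its widest region of Con lay over coding exon 1 (chr17:46607601-46608200, score 94). HOXB4, used to expand blood stem cells, had 100 bp in Con and 1600 bp in KD. HOXB2, HOXB5 and HOXB9 had no region of KDM3B and none of H3K9me2 in Con, and from 900 to 1771 bp of H3K9me2 in KD. The widest H3K9me2 region of the HOX clusters in KD, 2200 bp at chr17:46796001-46798200 with a score of 534, lay 9012 bp from HOXB13 and beside PRAC1 and PRAC2, small genes of the prostate and distal gut. There 500 bp were covered in Con in 2 regions.

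In the HOXC cluster, KDM3B was sparse. HOXC5 and HOXC6 shared a single KDM3B region of 100 bp in Con, the one at −284 bp from HOXC5 printed above, with none in KD, and their H3K9me2 went from 0 bp in Con to 1800 and 3893 bp in KD. HOXC8, a gene of the brachial spinal cord, kept its 200 bp of KDM3B in both lists (scores 48 and 47), and had the least H3K9me2 of the HOX genes with any in KD, 100 bp from 0 bp. HOXC10, a gene of the lumbar spinal cord and hindlimb, was the only gene of the cluster with H3K9me2 in its windows in Con, 100 bp in coding exon 1 against 1700 bp in KD. A further region of Con, in coding exon 2 of HOXC13, lay 6335 bp from the TSS and outside the window. HOXC4 and HOXC12 had no KDM3B and no H3K9me2 in Con, and 2600 and 2314 bp in KD. HOXC9, HOXC11 and HOXC13 likewise had 2000, 200 and 700 bp in KD only.

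In the HOXD cluster the KDM3B regions of Con and KD lay at the same places. HOXD12, of the distal limb, had 500 bp in both lists from 1 region with identical limits (chr2:176962201-176962700, scores 149 and 118). HOXD13, of the digits, had 349 bp in both, of which 1 region lay outside the cluster limits (chr2:176953201-176953300 in Con and the 100 bp next to it in KD). HOXD3 had 400 bp in Con and 200 bp in KD. H3K9me2 was present in Con at HOXD10, HOXD11, HOXD12 and HOXD13, with 100, 200, 200 and 300 bp, and in KD these genes had 3906, 2000, 1130 and 900 bp. HOXD3 had 0 and 2600 bp in its windows, and a region of Con in its coding exon 4 lay 7945 bp from the nearest of its start sites. HOXD1, HOXD4, HOXD8 and HOXD9 had no KDM3B and no H3K9me2 in Con, and from 279 to 1154 bp of H3K9me2 in KD.

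H3K9me2 in KD was at 37 of the 38 genes, so its presence could not separate the genes by their KDM3B. It was found at the 6 genes with KDM3B in Con only (HOXA13, HOXB6, HOXB7, HOXB13, HOXC5 and HOXC6), at the 10 genes with KDM3B in both lists, and at 21 of the 22 genes with KDM3B in neither. Over all protein-coding genes it was at 2005 of the 4031 genes with KDM3B in Con only. There it was also at 1757 of the 3018 with KDM3B in both lists, and at 5714 of the 12259 with KDM3B in neither. Among paralogs, KDM3B in Con was at 3 of 7 anterior, 7 of 15 central and 6 of 16 posterior genes, and the loss of all KDM3B regions in KD was at 0, 4 and 2 of them. H3K9me2 in Con was at 3 anterior, 1 central and 5 posterior genes, and in KD the median cover was 100 bp per kb for anterior, 89.2 for central and 114 for posterior genes. These groups are small and were not tested.

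With both H3K9me2 lists brought to the same number of regions, by keeping the highest scores of KD, the clusters held 20 regions in Con and 34 in KD. H3K9me2 of KD was at 25 of 38 genes (65.8%) against 17.0% of all protein-coding genes, and 17 genes (44.7%) had it in KD and not in Con against 12.1%. With both KDM3B lists brought to the same number in the same way, KDM3B of Con was at 14 HOX genes (36.8%) against 19.6% of all protein-coding genes, and that of KD stayed at 10 (26.3%) against 19.2%. KDM3B was then in Con and not in KD at 4 HOX genes (10.5%) against 8.76%.

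The cover around the canonical TSS was set beside that of all protein-coding genes, with no test. Within 500 bp of the TSS, KDM3B of Con covered 1.45% of the HOX positions against 3.88% over all protein-coding genes, and KDM3B of KD covered none against 1.67%. Farther away HOX genes had more, 1.18% against 0.348% from 5 to 1 kb upstream in Con. H3K9me2 of KD covered 10.7% of positions within 500 bp against 4.65%, and its highest step, 23.1%, lay 800 to 900 bp downstream of the TSS, where that of all genes was 6.36% at 600 to 700 bp. H3K9me2 of Con had its highest step, 5.95%, at 500 to 600 bp downstream, and that of all genes, 0.396%, at 400 to 500 bp. H3K9me2 was thus higher at HOX genes in both lists, with its highest step downstream of the TSS in both sets of genes. With 38 start sites, 1 gene moves a step by at most 2.63 percentage points.

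The parts of genes that held regions were counted next. Of the 176 H3K9me2 regions of KD, 36 (20.5%, 15.2 to 27.0%) had their centre in a coding exon, and of the 20 of Con 8 did (40%, 21.9 to 61.3%), whereas coding exons are 6.61% of the cluster bases. With each region counted for 1 gene only, the coding part of exon 1 of the canonical transcript held such a region at 13 genes in KD. These ran from HOXB1 and HOXB2 to HOXC13 and HOXD13. In Con it did so at 4 genes (HOXB1, HOXC10, HOXD12 and HOXD13). Exons are numbered over the whole transcript, so genes whose coding part starts in a later exon are not in these counts. Nor are genes that lie within the canonical transcript of HOXA3 or HOXB3, because regions there were counted for HOXA3 or HOXB3. The KD region in a coding exon 193 bp from the TSS of HOXA6 (chr7:27187101-27187300) is left out in this way. Introns held 76 regions of KD (43.2%) against 57.3% of bases. These shares were not counted over the whole lists, so they are not shown to be particular to the clusters. Across the genome, the paper reports H3K9me2 enriched after depletion in coding regions and introns as well as at promoters. Of the 22 KDM3B regions of Con, 11 lay in introns of some transcript, 4 between genes, 3 in untranslated exon parts, 2 in coding exons and 2 in non-coding exons.

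HOX clusters are rich in GC, and so were the regions. The median GC content was 60% for KDM3B in Con, against 53.5% for the whole list, and 62% for H3K9me2 in KD, against 62.4%. To set like beside like, 1-kb bins of the clusters were compared with bins of the genome in the same band of GC content. H3K9me2 of KD was in 47.7% of cluster bins with 50 to 55% GC against 13.4% of genome bins, in 67.3% against 39.5% with 55 to 60% GC, and in 67.3% against 55.8% with 60 to 65% GC. In the band of 45 to 50% GC it was 18.0% against 2.56%. Above 65% GC the order was the other way round, 25% of only 16 cluster bins against 40.2%. KDM3B of Con was in 1.64% of cluster bins with 45 to 50% GC against 0.902%, in 4.55% against 1.94% with 50 to 55%, in 9.90% against 3.32% with 55 to 60%, and in 7.69% against 4.63% with 60 to 65%. Above 65% GC it was in 0 of the 16 cluster bins against 5.73% of genome bins. The GC bands were added after the data were seen.

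**Figure D1:**
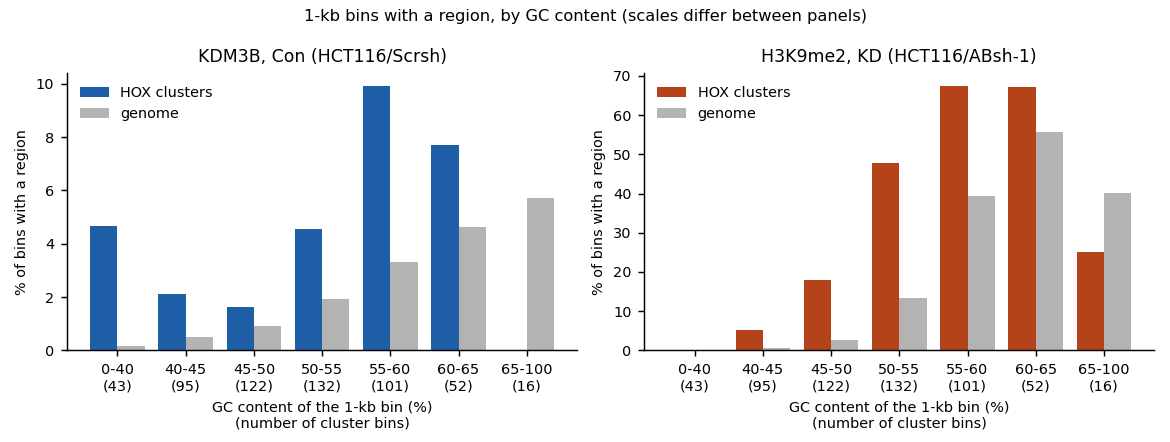
Share of 1-kb bins (%) that hold a KDM3B region of Con (left) or an H3K9me2 region of KD (right) by GC content of the bin, in the 4 HOX clusters (coloured) and the assembled genome (grey), with the number of cluster bins under each band; scales differ between panels. For both lists the cluster bars are above the genome bars from 40 to 65% GC and below them above 65% GC, where there are 16 cluster bins.

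Part of the KDM3B regions of the HOX clusters was present in both Con and KD. Of the 22 regions of Con, 9 overlapped a KDM3B region of KD by at least 1 bp (40.9%, 23.3 to 61.3%) against 25.7% of the whole list, an interval that includes the share of the list. From the other side, 9 of the 10 regions of KD overlapped one of Con (90%, 59.6 to 98.2%) against 56.4%, and the remaining one touched a region of Con end to end. The 9 kept regions had a median width of 400 bp and a median score of 76, and the 13 others 200 bp and 30. The kept regions lay at a median of 2869 bp from the nearest HOX start site and the others at 1108 bp. The part of score and width in a region's presence in KD was not tested.

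The KDM3B regions were then searched for the CTCF letters. The 14-letter CTCF consensus was looked for on both strands in the 500 bp around each region's centre, a search that was added after the data were seen. With at most 1 letter that differs, 3 of 22 regions held it, which are the HOXA7 to HOXA9 region, the region upstream of HOXB8, and chr7:27219401-27219600 in an untranslated exon part of HOXA10, and all 3 were among the kept. That is 13.6% of the 22 (4.75 to 33.3%) beside 32.3% of the whole list, an interval that includes the share of the list. Among the 9 kept it is 33.3%, beside 47.2% of the kept regions of the whole list. Among the 13 others it is 0 (0 to 22.8%), beside 27.2% of the regions of the list absent in KD. The interval of the 13 lies below that share, whereas that of the 9 kept (12.1 to 64.6%) includes its own. With at most 2 such letters it was 13 of 22 (59.1%, 38.7 to 76.7%), 7 of the 9 kept and 6 of the 13 others, beside 74.5% and 51.5% of the kept and other regions of the whole list. In the windows 2 kb to either side of the same regions 6 of 44 held it (13.6%), and of all 500-bp tiles of the clusters 16.0%.

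The same letters were found across the rest of the KDM3B lists. In the whole list of Con 57.4% of regions held the consensus with at most 2 letters that differ and 32.3% with at most 1, against 13.6% and 1.62% of the windows 2 kb beside them, and 8.77% and 0.904% of the tiles of the genome. The share of the HOX regions of Con was thus close to that of the list with at most 2 letters. With at most 1 it was lower, with an interval that includes the share of the list. In KD the shares of the whole list were 64.5% and 38.2%, and 8 of the 10 HOX regions held it with at most 2. H3K9me2 regions of the clusters held it in 30% of cases in Con and 21.6% in KD, beside 19.3% and 30.1% of the whole lists. A match is a run of letters and not a measured site of CTCF, which was not precipitated in these libraries.

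The motifs chosen for this study's pathway and for HOX proteins were rare. CTTTGAT, the TCF/LEF letters through which Wnt signals act, was in the 500 bp around 1 of 22 KDM3B regions of Con, the one at chr7:27250101-27250200 beyond HOXA13, against 7.17% of the whole list. TAATTA, the homeodomain letters, was around 2 of 22 (9.09%) against 9.48%. TGATTTAT was around the single HOXA3 region printed above, against 1.89%. For the 176 H3K9me2 regions of KD these shares were 3.98%, 3.98% and 2.27% against 3.55%, 3.95% and 0.772%. Both strands were searched, and CTTTGAT and TGATTTAT can share the letters TGAT.

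KDM3B and H3K9me2 regions seldom overlapped, in the clusters as in the whole lists. Of the 22 KDM3B regions of Con, 0 overlapped an H3K9me2 region of Con, beside 0.108% of the whole list. Within 1 kb of one lay 0 of the 22, beside 0.465%. The median gap was 22400 bp against 88700 bp for the whole list. To H3K9me2 of KD the gaps were shorter. Of the 22, 1 overlapped such a region (4.55%, 0.807 to 21.8%), beside 0.533% of the whole list. The overlap was 100 bp, in an intron of HOXD3 (chr2:177005301-177005700). Within 1 kb, 12 of 22 had an H3K9me2 region of KD (54.5%) against 11.5% of the whole list, and the median gap was 800 bp against 13600 bp. The kept regions had a median gap of 700 bp and the others 1400 bp. H3K9me2 regions of KD were dense in the clusters, and the part of this density in the short gaps was not tested. Of the 20 H3K9me2 regions of Con, 15 overlapped one of KD (75%, 53.1 to 88.8%) against 35.4%. Of the 176 H3K9me2 regions of KD, 13 overlapped one of Con (7.39%, 4.37 to 12.2%) against 4.47% of the whole list, and 163 overlapped none.

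Other genes of the same families and their regulators, in lists made of names alone, were read in the same way. Their counts stand beside shares over all protein-coding genes of 35% in Con and 19.2% in KD for KDM3B. For H3K9me2 these shares were 10.2% in Con and 49.2% in KD. The 8 cofactors of HOX proteins that were read (genes of the PBX, MEIS and PKNOX families) all had H3K9me2 in KD, from 200 bp at PBX3 to 4300 bp at MEIS3, and 1 had it in Con (MEIS2 with 200 bp). KDM3B was at 2 of them in Con (MEIS2 and PKNOX1) and at 3 in KD. Of the 8 ParaHox and EVX genes, 7 had H3K9me2 in KD, with CDX4 at none, and 2 in Con (GSX1 with 100 bp and EVX1 with 400 bp). CDX2 and CDX1, the regulators of intestinal identity, had 1600 and 700 bp of H3K9me2 in KD and none in Con, and 100 and 60 bp of KDM3B in Con and none in KD. EVX2, the neighbour of HOXD13, had 200 bp of KDM3B in Con, 100 bp in KD, and H3K9me2 of 0 and 1700 bp. PDX1 and GSX2 had 2600 and 900 bp in KD only.

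Genes that encode the Polycomb and trithorax regulators of HOX clusters were read last. Of these 21, 9 had KDM3B in Con and 3 in KD, beside 35% and 19.2% of all protein-coding genes, and 1 had H3K9me2 in Con and 9 in KD, beside 10.2% and 49.2%. H3K9me2 in KD covered 5200 bp at CBX8, 3464 bp at CBX7 and 1700 bp at CBX2. It was absent at EZH1, EZH2, SUZ12, EED, BMI1, RNF2, PHC1, KMT2A and CTCF among others. Of 20 further genes inside the clusters, most of them antisense RNAs and microRNAs, 10 had KDM3B in Con and 4 in KD, and 7 had H3K9me2 in Con and 19 in KD. HOTAIR, an antisense RNA of the HOXC cluster, had 1510 bp of H3K9me2 in KD and no other region, and HOTTIP, beside HOXA13, had 1100 bp and 200 bp of KDM3B in Con. HOXA10-AS was the exception, with 900 bp of KDM3B in Con and none of the other 3. These windows overlap those of the HOX genes and repeat their regions.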

How the data were processed

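ChIP-seq regions of KDM3B and H3K9me2 in HCT116 Con and KD cells were used, 1 list per library. The authors mapped reads to hg19 with Bowtie (version not given in the sources used here), kept uniquely mapped reads, counted 1 read per position and tested 100-bp windows of ChIP against input. The deposited lists hold positions and a whole-number score whose meaning the sources used here do not name, and it served only to rank regions within a list, with ties in file order. Read numbers and depth are unknown, so a longer list may reflect a deeper library.

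Genes came from GENCODE release 44 on hg19, and 0 regions passed a chromosome end. A region belonged to a window or cluster by an overlap of at least 1 bp. Shares of genes or regions carry Wilson 95% intervals, computed in Python 3.11.15 with numpy 2.4.6 and scipy 1.17.1, and figures were drawn with matplotlib 3.10.9. The interval code and the consensus search were tested on simulated data. With 1 library per condition no test was made. Motifs were searched on the hg19 sequence. Values are given in full for each gene with a KDM3B region, each with H3K9me2 in Con, the 3 genes per cluster with the most H3K9me2 bases in KD and each gene with no region, and other genes as ranges or single values. The members and gene lists were chosen with earlier results of these data known. A few genes of the lists are not reported here. Alternatives changed the score threshold, list lengths, window, start sites, overlap and merging.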

Additional observations from a re-analysis of the deposited data

How the results depend on the processing

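Of 85 alternative values, 73 stayed within 1.5 times the value reported and 12 moved further. Taking the 50% of each list with the highest scores left 110 H3K9me2 regions of KD in the clusters instead of 176. With equal numbers of regions per antibody these were 34, covering 28500 bp instead of 57500 bp, the genes with H3K9me2 in KD and not in Con were 17 instead of 28, and 1 gene had it in Con and not in KD instead of 0. A window of 2 kb left KDM3B at 9 genes in Con and 3 in KD, instead of 16 and 10, while H3K9me2 in KD stayed at 37. The single overlap of a KDM3B region of Con with H3K9me2 of KD became 0 under an overlap of at least 50% of the region, under the highest-scoring 50% and under equal numbers, and 12 when a gap below 1 kb was accepted. Allowing 1 rather than 2 letters to differ from the CTCF consensus, an alternative chosen after seeing the data, left 3 regions instead of 13. The cause of these moves was not tested. No paired analysis was possible because each group has 1 library and no value comes from a test. Depth is unknown, no replicate was left out for want of any, and absence from a list does not show absence of binding or of the mark.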
